A study of Mus musculus with 3 samples.

Results

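The CA2 and CA3 fields of the mouse hippocampus were examined in a set of 90 Visium spots, 30 from each of 3 brain sections, out of 10239 spots with at least 3000 unique molecular identifiers (UMIs). Visium captures RNA on an array of barcoded spots, and a spot is a small area that can hold several cells or parts of cells. Each spot was scored by the sum of ln(1 + counts per 10,000) over Grik4, Coch, Cabp7, Nptx1 and Iyd, and the 30 highest spots of each section were kept. The study asked how exercise alters molecular and spatial signatures of the ageing brain. Its 3 sections came from C57BL/6J mice, were cut at 10 µm from fresh frozen brain, and stand for 3 groups named Y-Ctrl (treatment Control), O-Ctrl (treatment Control) and O-Ex (treatment Exercise). The labels give nuclear RNA as the molecule. The sources used here give neither the meaning of the prefixes Y and O nor the ages, the number of animals behind each section or the kind of exercise. Where 3 values stand together they are those of Y-Ctrl, O-Ctrl and O-Ex, in this order. With 1 section per group there was no replicate check and no test was possible. Every difference below is between sections, intervals are exact Poisson or exact binomial 95% intervals that cover counting error only, and spots of 1 section are not replicates.

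CA3 pyramidal neurons receive the mossy fibre axons of dentate granule cells, excite one another through recurrent collaterals, and send Schaffer collaterals to CA1. The recurrent network has long been studied for pattern completion in memory and for its proneness to synchronous discharge. CA2 is the narrow field between CA3 and CA1; its neurons carry RGS14, a regulator of G protein signalling that restrains plasticity there, and the vasopressin receptor Avpr1b, and they are known for social memory. Of the genes used in the score, Grik4 encodes a high-affinity kainate receptor subunit found at mossy fibre synapses, Cabp7 a calcium-binding protein, Nptx1 a pentraxin that gathers AMPA receptors, Coch a secreted protein first described in the inner ear, and Iyd an iodotyrosine deiodinase.

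Promoter sequences are shown here for 3 genes that recur in the exercise comparison. Hmgcs1 and Msmo1 are enzymes of cholesterol synthesis, whose promoters classically bind SREBP-2 beside NF-Y, and Homer1 is a synaptic scaffold gene whose short form is an immediate early transcript. Each run is the 250 bases before the transcription start in RefSeq on GRCm38.p6, read 5′ to 3′ on the gene's strand, and the capitals mark the motif named. Hmgcs1 lies at chr13:119690101-119690350 on the plus strand, and its capitals mark CACCCCAC, the sterol regulatory core searched on both strands, which 2.59% of 32536 promoters of this length held. Msmo1 lies at chr8:64733579-64733828 on the minus strand, and its capitals mark 3 copies of CCAAT, the letters bound by NF-Y, which 33.8% of promoters held on either strand. Homer1 lies at chr13:93303507-93303756 on the plus strand, and its capitals mark 3 copies of TGACG, the core of the cyclic AMP response element, which 17.9% of promoters held on either strand. The motif matches describe letters in these windows and say nothing of binding. The windows shown each hold a match and were picked from a search of more genes and motifs. In that search the sterol core was absent from Msmo1 and from Srebf2, the SREBP-2 gene, but present in a window of Hpca, the hippocalcin gene. No Homer1 window held the full cyclic AMP response element. Eef1a2 and Kndc1, named below, held none of the motifs searched.
Hmgcs1: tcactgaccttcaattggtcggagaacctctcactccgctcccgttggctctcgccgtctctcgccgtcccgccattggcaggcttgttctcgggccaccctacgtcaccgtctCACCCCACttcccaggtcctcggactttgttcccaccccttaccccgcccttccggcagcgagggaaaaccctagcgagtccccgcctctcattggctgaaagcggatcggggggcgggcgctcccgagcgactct
Msmo1: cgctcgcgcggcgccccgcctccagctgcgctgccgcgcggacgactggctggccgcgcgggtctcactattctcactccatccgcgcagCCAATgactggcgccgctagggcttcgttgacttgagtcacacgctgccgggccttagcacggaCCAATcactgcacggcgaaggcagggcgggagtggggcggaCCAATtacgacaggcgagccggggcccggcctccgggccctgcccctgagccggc
Homer1: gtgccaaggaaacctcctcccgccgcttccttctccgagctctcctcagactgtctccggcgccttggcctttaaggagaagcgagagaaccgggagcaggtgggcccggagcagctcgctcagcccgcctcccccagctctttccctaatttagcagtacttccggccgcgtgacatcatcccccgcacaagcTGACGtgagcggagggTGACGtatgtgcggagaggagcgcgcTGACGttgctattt

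The spots were deeper than the rest of their sections. Their median UMI count was 32738, 24048.5 and 29991, against 15690, 14842 and 13619 in the other spots of at least 3000 UMIs. Summed over 30 spots this gave 939828 UMIs, 804095 and 872022, which is the depth behind every level below. The last spot inside and the first outside had scores of 3.35 and 3.32 (Y-Ctrl), 3.56 and 3.54 (O-Ctrl) and 3.65 and 3.62 (O-Ex), so no gap separated members from non-members. All sections carried the same list of 4992 array barcodes. By that design 7 barcodes of Y-Ctrl members were also those of O-Ctrl members, 5 were shared by Y-Ctrl and O-Ex and 1 by O-Ctrl and O-Ex.

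The CA3 part of the name was borne by genes that the score did not use. Bok, a BCL-2 family member that is strongly expressed in CA3, reached 508, 575 and 542 CPM, the usual scaled share of all UMIs in the summed spots, against 82.9, 75.6 and 65.9 in the other spots. In single spots its median was 5.59, 5.86 and 4.92 UMIs per 10,000, its lowest value 0 in every section and its highest 8.03, 10.4 and 8.28. The 3 sections overlapped over nearly their whole range for Bok. Thinned to 3000 UMIs, 66.7% (47.2 to 82.7), 66.7% (47.2 to 82.7) and 60.0% (40.6 to 77.3) of the spots held a Bok UMI, against 20.1%, 18.0% and 16.0% of the other spots thinned to the same number.

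Cpne4, a copine, stood at 320, 245 and 290 CPM in Y-Ctrl, O-Ctrl and O-Ex, against 5.87, 9.46 and 12.4 CPM in the 30 spots per section that scored highest over 5 CA1 genes, among them Fibcd1, Wfs1, Pou3f1 and Mpped1. Homer3, a postsynaptic scaffold protein, stood at 107, 116 and 144 CPM, against 7.59, 8.47 and 10.9 CPM in all other spots. Spock1, a proteoglycan, and Nectin3, an adhesion molecule, were likewise higher in the members of every section than in the other spots, at 256, 254 and 297 CPM for Spock1 against 149, 147 and 143. No member was among the 30 highest CA1 spots, and 2 Y-Ctrl members were among the 30 highest dentate gyrus spots, which were scored over Prox1, C1ql2, Dsp, Lct and Tdo2.

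The CA2 part of the name rested on a few spots. Rgs14 gave 75, 57 and 47 UMIs in Y-Ctrl, O-Ctrl and O-Ex, and 44, 20 and 30 of them lay in 1 spot of each section. The same spot held 8, 10 and 12 UMIs of Amigo2, an adhesion molecule typical of CA2, and 129, 38 and 66 UMIs of Pcp4, a calmodulin regulator abundant in CA2. Rgs14 was higher in the CA1-scored spots, at 136, 119 and 108 CPM, than in the members, at 79.8, 70.9 and 53.9 CPM. Avpr1b gave no UMI in any section, which allows up to 3 UMIs, or 3.19 CPM, 3.73 and 3.44. Summed over its 20 genes, the CA2 list was lower in the members (1170, 782 and 732 CPM) than in the other spots (1745, 1293 and 1116 CPM), where Pcp4 is also abundant outside the hippocampus. The 22 genes of the CA3 list summed to 2234, 2280 and 2521 CPM in the members and 680, 632 and 660 CPM elsewhere. Per 10,000 UMIs, Rgs14 reached 8.07, 4.50 and 7.22 in these richest spots and was at 0 in 19, 16 and 20 spots. At least 2 Rgs14 UMIs per 10,000 were present in 2, 4 and 1 spots, and the O-Ctrl spots after the richest held 3.17, 2.57 and 2.49 with 6, 3 and 5 UMIs of Amigo2. The spots are therefore described below mainly as CA3-rich tissue with a few CA2-rich spots, which were most numerous and least extreme in O-Ctrl.

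Some members did not carry CA3 genes. A UMI of at least 3 of the 5 genes Bok, Spock1, Nectin3, Cpne4 and Homer3 was present in 24, 28 and 23 spots, and the other 6, 2 and 7 spots had fewer. Those with fewer included a Y-Ctrl spot of 3019 UMIs and O-Ex spots of 4667, 3816, 3562 and 4090 UMIs, in which a few UMIs of the score genes sufficed. An O-Ctrl spot of 21657 UMIs held 286 UMIs of Ttr, the transthyretin made by choroid plexus, and 6 of Coch. An O-Ex spot of 7726 UMIs held 1163 UMIs of Ttr and 15 of Coch. Results are given over all 30 spots and, where it changes them, over the spots with at least 3 of the 5 genes, a choice made after these values were seen.

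**Figure D1:**
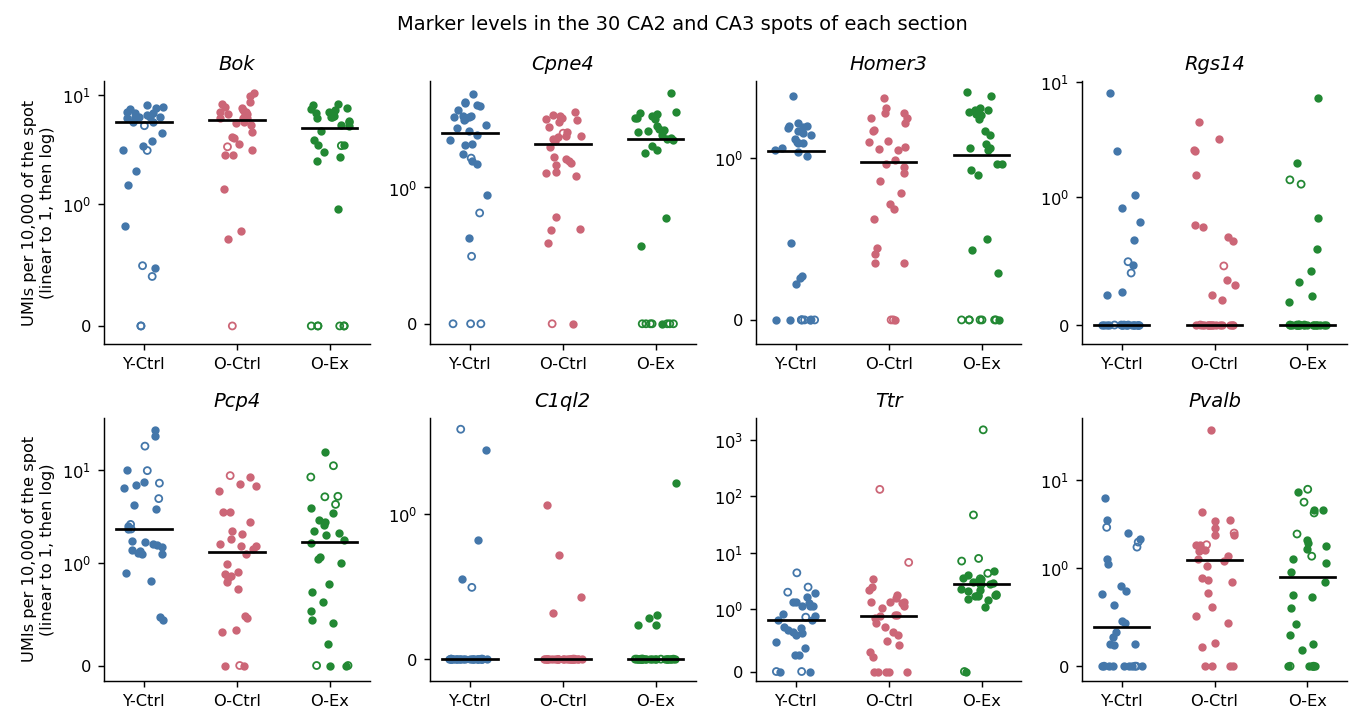
UMIs per 10,000 UMIs in each of the 30 spots of each section, on a vertical axis that is linear up to 1 and logarithmic above, for the CA3 genes Bok, Cpne4 and Homer3, the CA2 genes Rgs14 and Pcp4, and the dentate, choroid plexus and interneuron genes C1ql2, Ttr and Pvalb. Filled points are spots with at least 3 of the 5 CA3 genes, open points have fewer, and bars are medians; Bok fills most spots of every section, whereas Rgs14 has a median of 0 and Ttr stands far above the rest in 1 spot of O-Ctrl and 1 of O-Ex.

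Markers of other regions and cell types were present at low to moderate levels. The 10 CA1 genes summed to 84.1, 101 and 86.0 CPM and Fibcd1, which marks CA1, gave 1, 1 and 5 UMIs. The 12 dentate granule genes summed to 181, 69.6 and 96.3 CPM, and were highest in Y-Ctrl, where the 2 members shared with the dentate set lie. Myelin and oligodendrocyte genes summed to 1959, 2753 and 2627 CPM against 8667, 10154 and 9818 elsewhere. Choroid plexus genes summed to 169, 588 and 1907 CPM, and to 159, 189 and 335 CPM in the spots with at least 3 of the 5 CA3 genes. GABA interneuron genes summed to 418, 682 and 509 CPM, erythrocyte genes to 122, 266 and 182 CPM (86.0, 125 and 106 CPM in the spots with at least 3 of the 5 CA3 genes), and astrocyte identity genes to 2331, 2533 and 2173 CPM. The choroid, interneuron, myelin and erythrocyte sums thus moved between sections together with results given below, and their part in them was not tested. In sums over spots, fewer cells of a type and less RNA per cell cannot be told apart.

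The genes that stood highest over the other spots in all sections, leaving out the score genes, were those of hippocampal pyramidal cells. Hpca, the neuronal calcium sensor hippocalcin, reached 2926, 3486 and 3302 CPM against 413, 396 and 429 CPM elsewhere. Neurod6, a transcription factor of pyramidal neurons, stood at 459, 461 and 588 CPM against 65.5, 59.6 and 71.3. Npy2r, the presynaptic neuropeptide Y receptor that damps glutamate release in the hippocampus, stood at 122, 139 and 130 CPM against 9.56, 8.54 and 9.04. Ccnd2, a D-type cyclin, reached 172, 184 and 209 CPM, and Chgb, a granin of dense-core vesicles, 1086, 1015 and 1368 CPM. Not all of these separate CA3 from CA1. In the CA1-scored spots Hpca was higher, at 3852, 3754 and 3719 CPM, and Neurod6 read 517, 407 and 574 CPM, whereas Bok read 24.2, 29.6 and 23.2 CPM and Ccnd2 15.4, 11.8 and 20.9 CPM there. These levels come from spots chosen by their expression and are given as a description.

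The first comparison set O-Ctrl against Y-Ctrl, the control sections of both prefixes. Ratios are log2 of O-Ctrl over Y-Ctrl on CPM + 5, for 3360 genes whose mean over the sections reached 50 CPM, and a 1.5-fold difference was the size counted. At that size 37 genes (1.1%) were higher and 54 genes (1.61%) lower in O-Ctrl, and 5 (0.149%) and 4 (0.119%) at 2-fold. Of the 54, 4 had less than 50 CPM in both other sections and so passed the filter only through Y-Ctrl. In the spots with at least 3 of the 5 CA3 genes 42 (1.25%) were higher and 57 (1.7%) lower. The median over all genes was −0.00 and 49.1% of genes lay above 0, so the sums of both control sections were balanced. List counts above 0 in this comparison are read against that 49.1%. CA3 genes differed little: of 11 that passed the filter 6 lay above 0 and 5 below with a median of 0.08, and none was past 1.5-fold. The CA2 list had 0 of 5 above 0, with Pcp4 the only member past 1.5-fold.

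Cyp46a1, the brain enzyme that turns cholesterol into 24S-hydroxycholesterol for export, was the lowest gene. It read 64.9 CPM (49.6 to 83.4), 23.6 CPM (14.2 to 36.9) and 67.7 CPM (51.5 to 87.3), from 61, 19 and 59 UMIs spread over 25, 15 and 21 spots. O-Ctrl was the low section, its interval overlapped neither of the others, and Y-Ctrl and O-Ex were alike within counting error. The log2 ratio was −1.29 for O-Ctrl over Y-Ctrl, against −0.28 in the CA1-scored spots, −0.66 in the dentate-scored spots and −0.13 in all other spots. With 50 spots per section in place of 30 the ratio was −0.36. Cyp46a1 lies at chr12:108334381-108362234 on the plus strand (GRCm38).

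Pcp4 read 563 CPM (516 to 613), 235 (203 to 271) and 210 (181 to 243), and the Y-Ctrl interval lay above both others. The median spot held 2.33 UMIs per 10,000, 1.32 and 1.70, while the highest spots held 27.7, 8.77 and 15.9. The ratio of O-Ctrl over Y-Ctrl was −1.24, and −1.16 without the richest spot of each section, but −0.31 with 20 and −0.20 with 50 spots per section. Pcp4 is abundant in CA2 and in dentate granule cells, and the dentate list was also highest in Y-Ctrl, at 181 CPM against 69.6 in O-Ctrl. Without the 2 Y-Ctrl members shared with the dentate set, which held 117 and 45 of the 529 Pcp4 UMIs, the ratio was −0.83. Over all other spots the ratio was −0.51, and in the CA1-scored spots −0.08.

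Gja1, the astrocyte gap junction protein connexin 43, read 81.9 CPM (64.7 to 102), 38.6 (26.2 to 54.7) and 41.3 (28.9 to 57.2). It passed the filter only through Y-Ctrl, where it is high. Its ratio was −1.0 in the members and −0.19 in all other spots, while the astrocyte list as a whole had 6 of 9 genes above 0 and a median of 0.13. Gabra4, a GABA-A receptor subunit, stood at 92.6, 60.9 and 68.8 CPM with a ratio of −0.57, and its ratio in all other spots was −0.54. Bc1, a dendritic noncoding RNA that represses local translation, stood at 3459, 2424 and 2532 CPM with a ratio of −0.51 and of −0.28 in spots with at least 3 of the 5 CA3 genes. Bc1 went the other way in the CA1-scored spots (0.29) and the dentate-scored spots (0.74). Tfrc, the transferrin receptor, read 63.8, 34.8 and 59.6 CPM, and Scg2, secretogranin II, 107, 60.9 and 75.7 CPM, both lowest in O-Ctrl. Scg2 shrank to a ratio of −0.04 with 50 spots per section.

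The other genes of lowest ratio in O-Ctrl were Rsl24d1, a ribosome assembly factor, at 75.5, 32.3 and 59.6 CPM (−1.11), Rasl10a, a Ras-like protein, at 83.0, 37.3 and 51.6 CPM (−1.06), and Rchy1, Spag7, Fam212b, Alcam and Sec22b, whose ratios ran from −0.91 to −0.85. All had between 32.3 and 52.2 CPM in O-Ctrl, that is few UMIs per gene.

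The genes of highest ratio in O-Ctrl included several that are typical of other cell types. Ttr read 96.8, 454 and 1587 CPM, a ratio of 2.17, which came to 0.10 without the richest spot of each section and 0.04 in the spots with at least 3 of the 5 CA3 genes. Pvalb, the calcium buffer of basket cells, read 103, 256 and 142 CPM, and Gad1, the enzyme that makes GABA, 72.4, 164 and 103 CPM. One O-Ctrl spot held 107 of the 206 Pvalb UMIs and 42 of the 132 Gad1 UMIs there. Without the richest spots the ratios of 1.27 for Pvalb and 1.13 for Gad1 became 0.80 and 0.80. Npy, the neuropeptide Y gene, read 56.4, 95.8 and 74.5 CPM (0.71), whereas Sst, the somatostatin gene of another class of interneurons, was lower in O-Ctrl, at 123, 67.2 and 128 CPM (−0.83). The 4 interneuron genes that passed thus split into 3 past 1.5-fold higher and 1 past it lower. Apod, an apolipoprotein of oligodendrocytes and perivascular cells, read 57.5, 143 and 95.2 CPM, a ratio of 1.24, and it was higher in O-Ctrl in the CA1-scored (1.16), dentate-scored (0.78) and all other spots (1.03) too. Ptgds, a prostaglandin D synthase of meninges and oligodendrocytes, read 381, 751 and 553 CPM, and its ratio of 0.97 was 0.34 in the spots with at least 3 of the 5 CA3 genes. Gm42418, a transcript known to collect ribosomal RNA reads, read 935, 1873 and 1450 CPM. Serpina3n, an acute-phase protease inhibitor, read 43.6, 67.2 and 88.3 CPM, a ratio of 0.57 against 1.41 in all other spots.

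Among neuronal genes Camk2a, the α subunit of calcium/calmodulin kinase II, read 301 CPM (267 to 338), 441 (397 to 490) and 376 (337 to 419), and the Y-Ctrl and O-Ctrl intervals did not overlap. The ratio of 0.54 recurred in the CA1-scored spots (0.54), the dentate-scored spots (0.94) and all other spots (0.42). Hspa5, the endoplasmic reticulum chaperone BiP, read 137 (115 to 163), 209 (179 to 243) and 260 CPM (228 to 296). Kcnc1, a potassium channel of fast-spiking cells, read 62.8, 95.8 and 98.6 CPM. Glycolysis genes had 12 of 14 members above 0 with a median of 0.16, the largest being Eno1 (339 to 440 CPM, 0.37) and Gpi1 (459 to 563 CPM, 0.29). All 8 cholesterol synthesis genes that passed lay above 0, with a median of 0.15 and the largest ratio for Fdft1 (0.32). None of the glycolysis or cholesterol genes was past 1.5-fold.

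Neurotrophin, growth factor and receptor genes had 2 of 7 members above 0 and a median of −0.28, calcium-binding and calmodulin genes 5 of 21 and −0.04, and postsynaptic scaffold genes 3 of 13 and −0.06. Synaptic vesicle genes had 17 of 24 above 0 and a median of 0.05. The 3 immediate early genes that passed had a median of −0.22. Among the 17 that did not pass the filter, Fos gave 13, 4 and 5 UMIs, Jun 60, 26 and 42, and Junb 38, 17 and 25. Nr4a1 gave 24, 10 and 27 UMIs and Dusp6 45, 22 and 42. These genes are named after their values were seen, and Arc, also of the 17, was nearly level at 36, 33 and 34 UMIs. For the whole list of 20 genes the summed level was 592, 455 and 678 CPM in the members and 803, 559 and 625 CPM in the other spots, lowest in O-Ctrl in both. C4b, a complement gene, gave 5, 21 and 20 UMIs and Gfap, the astrocyte filament gene, 24, 41 and 26. The interferon response list summed to 128, 229 and 258 CPM, but to 129, 215 and 190 CPM in the spots with at least 3 of the 5 CA3 genes, where O-Ex was no longer the highest; 1 O-Ex spot reached 7248 CPM.

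**Figure D2:**
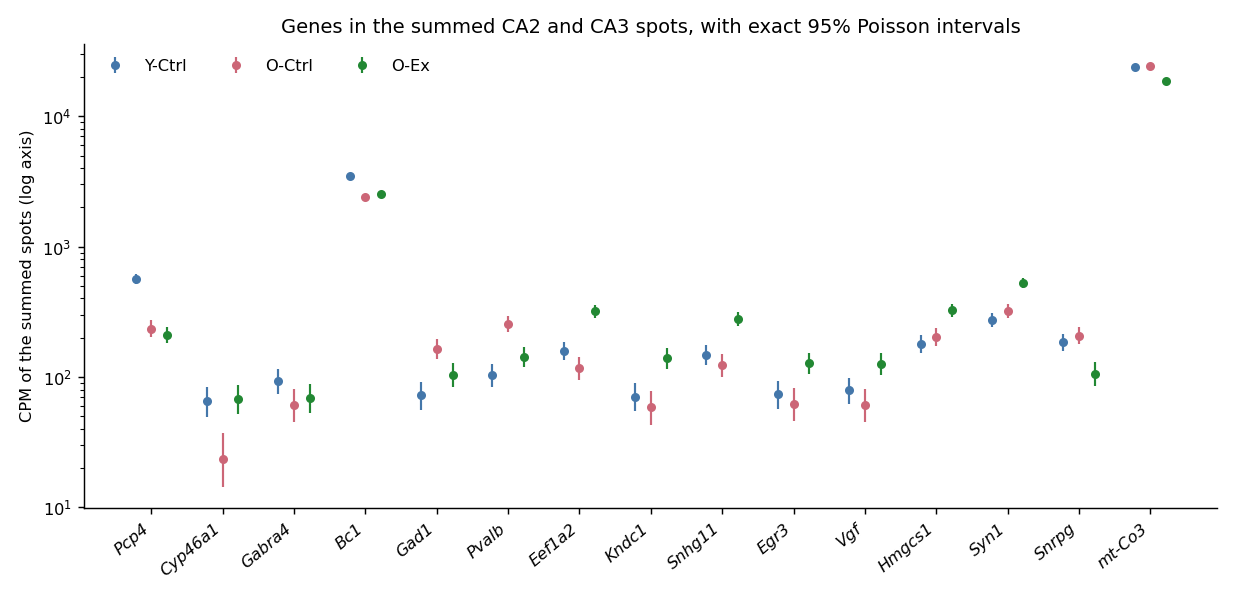
CPM of the summed 30 spots in Y-Ctrl, O-Ctrl and O-Ex for 15 genes on a logarithmic axis, with bars that are exact Poisson 95% intervals for counting error only. Cyp46a1 is low in O-Ctrl alone, Pcp4 is high in Y-Ctrl alone, and Eef1a2, Kndc1, Snhg11, Egr3, Vgf, Hmgcs1 and Syn1 are highest in O-Ex.

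The second comparison set O-Ex against O-Ctrl, the exercise section against the control section of the same prefix. It shares O-Ctrl with the first comparison, so a gene that is low in O-Ctrl is lower in the first and higher in the second from the same counts. At 1.5-fold, 147 genes (4.38%) were higher and 34 genes (1.01%) lower in O-Ex, and 9 (0.268%) and 0 (0.0%) at 2-fold. Of the 147, 14 had less than 50 CPM in both other sections and so passed the filter only through O-Ex. In the spots with at least 3 of the 5 CA3 genes 159 (4.73%) were higher and 41 (1.22%) lower. The median over all genes was 0.07 and 59.3% lay above 0. With trimmed mean of M values (TMM) scaling, whose factors were 0.983, 0.972 and 1.05 in Y-Ctrl, O-Ctrl and O-Ex, the median moved from 0.07 to −0.03 and the split became 80 higher and 90 lower. The excess of higher genes therefore depended on the scaling, and list medians below are read against the all-gene median of 0.07. In the same way, list counts past 1.5-fold are read against 4.38% of all genes higher and 1.01% lower. List counts above 0 are read against 59.3% of all genes.

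The ratio of O-Ex over O-Ctrl moved with transcript length. The genes were ordered by transcript length into 10 classes of 335 or 336 genes. In the class of shortest transcripts, of median length 864.5 bases, the median ratio was −0.21, and in the class of longest, of median length 8552 bases, it was 0.19. The same pattern was present in the CA1-scored spots (−0.23 and 0.18), the dentate-scored spots (−0.13 and 0.21) and, more weakly, in all other spots (−0.09 and 0.10). For O-Ctrl over Y-Ctrl the medians of the classes stayed between −0.03 and 0.02 in the CA2 and CA3 spots. The mitochondrially encoded share of UMIs was 11.9% (11.84 to 11.97), 12.1% (12.05 to 12.19) and 9.36% (9.30 to 9.42). When each ratio was centred on the median of its class, 65 genes were higher and 68 lower at 1.5-fold. How far the length trend enters each gene group was not tested, and centred values are given beside the groups.

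**Figure D3:**
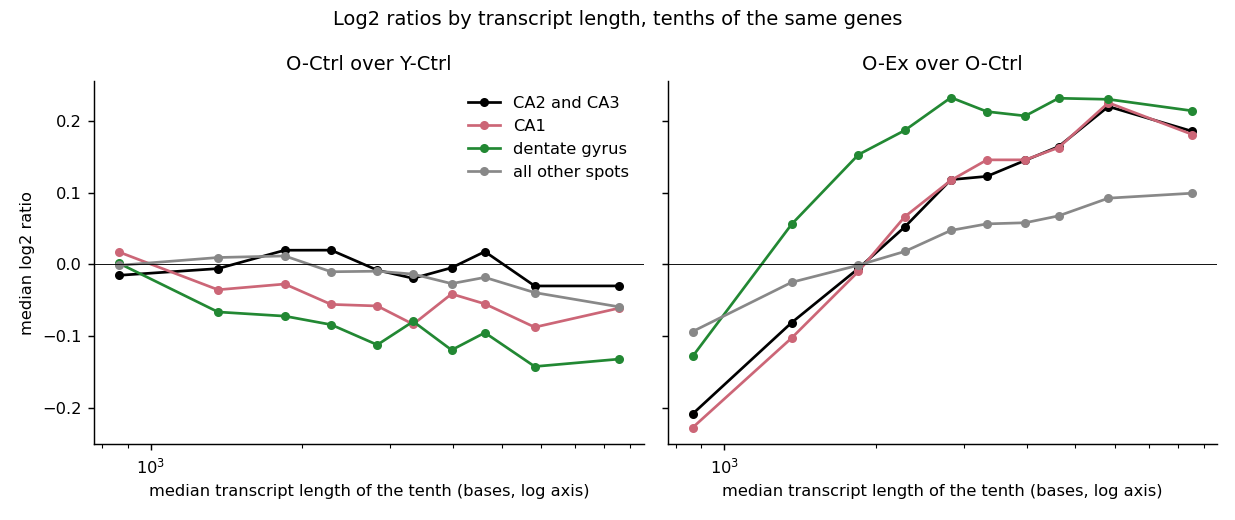
Median log2 ratio of O-Ctrl over Y-Ctrl and of O-Ex over O-Ctrl in 10 classes of genes by transcript length, in bases on a logarithmic axis, for the CA2 and CA3 spots, the CA1-scored spots, the dentate-scored spots and all other spots. For O-Ex over O-Ctrl the medians climb from −0.21 to 0.19 in the CA2 and CA3 spots and from −0.09 to 0.10 in all other spots, while for O-Ctrl over Y-Ctrl they stay near 0 in the CA2 and CA3 spots.

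Eef1a2, the elongation factor isoform of neurons and muscle, had the highest ratio after Ttr. It read 159 CPM (134 to 186), 117 (94.5 to 143) and 319 (282 to 359), from 149, 94 and 278 UMIs. The median spot held 1.46, 1.10 and 3.12 UMIs per 10,000, and O-Ex lay above both other sections. The ratio was 1.41 in the members, 1.03 in the CA1-scored spots, 1.40 in the dentate-scored spots and 0.91 in all other spots, so the difference ran through the section. The gene lies at chr2:181147653-181157014 on the minus strand (GRCm38). Snhg11, a neuronal noncoding RNA, followed the same course, at 148, 123 and 279 CPM and a ratio of 1.15 against 0.78 in all other spots.

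Kndc1, a Ras exchange factor that limits dendrite growth, read 70.2 CPM (54.3 to 89.3), 58.5 (42.9 to 77.7) and 139 (115 to 166). Its ratio was 1.18 in the members, 0.58 in the CA1-scored spots, −0.00 in the dentate-scored spots and 0.00 in all other spots, and over the alternatives tried in the members it stayed between 0.89 and 1.23. Ajap1, an adherens junction protein also found in hilar mossy cells, read 38.3, 41.0 and 82.6 CPM, with a ratio of 0.93 in the members and 0.02 in all other spots; it passed the filter only through O-Ex. Of the 7 mossy cell genes, Calb2, Drd2, Calcrl, Csf2rb2 and Ghsr did not exceed 6 UMIs in any section. The 7 together summed to 598, 626 and 642 CPM in the members and 381, 298 and 302 CPM in the other spots. Of the 7, 2 passed the filter, with ratios of 0.93 (Ajap1) and −0.07. These differences between spot sets were not tested. Arid1b, a chromatin remodelling subunit, Srsf11, a splicing factor, and Sppl3, a Golgi protease, had ratios of 1.07, 1.07 and 1.03 from at most 104 CPM, Arid1b having passed only through O-Ex. Kndc1 lies at chr7:139894696-139941537 on the plus strand.

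Egr3, Vgf and Egr1, which follow neuronal activity, were past 1.5-fold higher in O-Ex. For Egr1 this did not hold after centring on length, where its ratio was 0.52. Egr3, an activity-induced zinc finger factor, read 73.4 CPM (57.1 to 92.9), 62.2 (46.2 to 82.0) and 127 (105 to 153), and the O-Ex interval lay above both others. Vgf, a secreted peptide precursor induced by BDNF, read 78.7 CPM (61.8 to 98.8), 60.9 (45.1 to 80.6) and 126 (104 to 152). The median spot held 0.642, 0.406 and 1.16 Egr3 UMIs and 0.702, 0.439 and 1.17 Vgf UMIs per 10,000, with ratios of 0.98 and 0.99. For Vgf the ratio was 0.44 in the CA1-scored, 0.21 in the dentate-scored and 0.29 in all other spots, and in the members it ran from 0.57 to 1.21 over the alternatives. For Egr3 the other spot sets read 0.66, 0.37 and 0.41.

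Of the 20 immediate early genes 3 passed the filter, namely Egr1, Egr3 and Homer1, and 2 of them were past 1.5-fold. Egr1 read 63.8, 51.0 and 84.9 CPM (0.68) and Homer1 84.1, 87.1 and 117 CPM (0.41). The list median was thus 0.68, but 0.52 after centring on length and 0.58 with TMM, both short of 1.5-fold. Among the rest, Arc, the activity-regulated cytoskeletal gene, gave 36, 33 and 34 UMIs and Fos 13, 4 and 5 UMIs, so no difference was detectable in either at this depth. Jun, Junb, Nr4a1 and Dusp6, whose counts are given above, had more UMIs in O-Ex than in O-Ctrl. Bdnf, the activity-regulated neurotrophin, read 112, 108 and 140 CPM (0.36), Fgfr1, an FGF receptor, 72.4, 78.4 and 114 CPM (0.51), and Ntrk2, the BDNF receptor, 132, 138 and 134 CPM. The neurotrophin list had 6 of 7 genes above 0 and a median of 0.36, which was 0.19 after centring. Homer1 is the member whose promoter, with 3 copies of TGACG, is printed above.

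Of 8 cholesterol synthesis genes 2 were past 1.5-fold higher in O-Ex. Hmgcs1, which makes the HMG-CoA of the mevalonate pathway, read 179 CPM (153 to 208), 203 (173 to 236) and 325 (288 to 365), with the O-Ex interval above both others. The median spot held 1.34, 1.66 and 2.79 UMIs per 10,000, and the ratio of O-Ex over O-Ctrl was 0.67, but 0.54 after centring on length and 0.45 with spots scored over the CA3 list, both short of 1.5-fold. Msmo1, a sterol methyl oxidase, read 116, 123 and 166 CPM (0.42). Sqle, squalene epoxidase, read 71.3, 78.3 and 102 CPM, Fdft1, squalene synthase, 91.5, 116 and 138 CPM, and Srebf2, the gene of SREBP-2, 97.9, 116 and 146 CPM. Fdps, farnesyl diphosphate synthase, was flat at 94.7, 97 and 99.8 CPM.

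All 8 cholesterol genes that passed lay above 0, against 59.3% of all genes, with a median of 0.39. The count above 0 was 7 of 8 after centring on length (median 0.25) and 7 of 8 with TMM (median 0.29), Fdps being below 0 in both. The list median was 0.02 in the CA1-scored spots, 0.23 in the dentate-scored spots and 0.08 in all other spots, and Hmgcs1 itself read 0.44, 0.31 and 0.07 there. These contrasts between spot sets of the same sections were not tested. The 10 genes that did not pass included Cyp51, at 38, 20 and 45 UMIs, but also Insig1 at 28, 37 and 30 and Lss at 12, 4 and 3. Hmgcs1 and Msmo1 are the members whose promoters are printed above. Cyp46a1, which removes cholesterol from neurons, was also higher in O-Ex than in O-Ctrl (1.34), from the low O-Ctrl value given above, and with spots scored over the CA3 list its ratio was 0.49.

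Among 24 genes of transmitter release 1, Syn1, was past 1.5-fold higher in O-Ex, a share near the 4.38% of all genes. Syn1, the vesicle tether synapsin I, read 273 CPM (241 to 309), 320 (282 to 361) and 525 (478 to 576), with spot medians of 2.27, 2.83 and 4.98 UMIs per 10,000 and a ratio of 0.71. Dnm1, the dynamin of synaptic endocytosis, read 943, 1114 and 1636 CPM (0.55), and Snap25, a fusion protein, 4317, 4047 and 5285 CPM (0.38). Rims1, an active zone scaffold, read 62.8, 63.4 and 44.7 CPM (−0.46), and Stx1a 100.02, 113 and 102 CPM (−0.14). Of the 24 genes 20 lay above 0 with a median of 0.28, and after centring 16 did with a median of 0.13. Syn1 read 0.44, 0.67 and 0.25 in the CA1-scored, dentate-scored and all other spots.

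Few channel genes were past 1.5-fold, and none of the AMPA, NMDA and GABA-A receptor genes that passed the filter was. Sodium, calcium and HCN channel genes had 12 of 13 above 0 (median 0.29, centred 0.11) and 2 of 13 past 1.5-fold higher, against 4.38% of all genes. These were Cacna1e, an R-type calcium channel, at 78.7, 72.1 and 125 CPM (0.75), and Cacna1b, the N-type channel, at 38.3, 46.0 and 73.4 CPM (0.62). Cacna1b passed the filter only through O-Ex. As a mean of single spots their ratios were 0.42 and 0.30, short of 1.5-fold. Cacnb3, a calcium channel β subunit, was the member below 0, at 172, 209 and 144 CPM (−0.52). Potassium channel genes had 8 of 10 above 0 (median 0.22) and 2 of 10 past 1.5-fold higher. After centring on length 5 of 10 lay above 0, with a median of 0.03. Kcnq3, a subunit of the M channel that limits repetitive firing, had the highest ratio of them. It read 57.5, 52.2 and 84.9 CPM (0.65), and in all other spots its ratio was 0.14. AMPA and NMDA receptor genes had 8 of 9 above 0 (median 0.28), and 6 of 9 after centring (0.09), among them Grin2a (233, 209 and 297 CPM, 0.50) and Gria1 (268, 267 and 369 CPM, 0.46). GABA-A receptor genes had a median of 0.06, which became −0.09 after centring and −0.05 with TMM, and postsynaptic scaffold genes of −0.05, with 6 of 13 above 0.

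Of 14 cytosolic chaperone genes 1, Chordc1, was past 1.5-fold higher in O-Ex, and of 9 endoplasmic reticulum chaperones 0 were, against 4.38% of all genes. Cytosolic chaperones had 12 of 14 above 0 with a median of 0.35, or 0.25 after centring, and 0.16 in all other spots. Chordc1, an Hsp90 co-chaperone, read 48.9, 54.7 and 90.6 CPM (0.68), but its ratio was 0.46 after centring on length, short of 1.5-fold. Hsph1, the large Hsp105 chaperone, read 295, 272 and 394 CPM (0.53), whereas Hspe1, the mitochondrial Hsp10, read 456, 434 and 354 CPM (−0.29). Endoplasmic reticulum chaperones had 8 of 9 above 0 with a median of 0.34, against 0.46 in the CA1-scored, 0.49 in the dentate-scored and 0.27 in all other spots. Pdia3, a disulfide isomerase, read 115, 97 and 141 CPM (0.52) and Calr, calreticulin, 207, 233 and 325 CPM (0.47). Mapt, the gene of tau, read 86.2, 108 and 163 CPM (0.57), against 0.08 in all other spots.

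No respiratory chain gene was past 1.5-fold, and most had ratios below 0. Of 12 mitochondrially encoded genes that passed, 0 lay above 0, with a median of −0.36, −0.20 after centring and −0.46 with TMM. Among them mt-Co3, of cytochrome oxidase, read 24060, 24373 and 18534 CPM. Its ratio of −0.40 was −0.40 in the CA1-scored, −0.97 in the dentate-scored and −0.18 in all other spots. With spots scored over the CA3 list the median of the 12 genes was −0.04. Of 32 nuclear respiration genes 5 lay above 0, with a median of −0.21, and 10 of 32 and −0.10 after centring. The transcript of mt-Co3 has 784 bases and falls in the class of shortest transcripts, whose median was −0.21.

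The genes of lowest ratio were Snrpg, a core protein of spliceosomal snRNPs, at 185 CPM (159 to 215), 208 (177 to 242) and 106 (85.0 to 129), Nol7, a nucleolar protein, at 96.8, 132 and 67.7 CPM, and Znhit2, a zinc finger protein, at 56.4, 74.6 and 39.0 CPM. Their ratios were −0.94, −0.91 and −0.86, and for Snrpg −0.47, −0.37 and −0.33 in the CA1-scored, dentate-scored and all other spots. Snrpg was −0.74 after centring on length. Ndufaf2, a complex I assembly factor, read 83.0, 77.1 and 40.1 CPM (−0.86) and Ptpn5, the striatal-enriched phosphatase STEP, 81.9, 118 and 66.5 CPM (−0.78). Pvalb (−0.83) and Gad1 (−0.64) were lower in O-Ex, but −0.04 and −0.33 without the richest spot of each section, and Sst was higher (0.89), from the low O-Ctrl value given above. Ttr was higher, at 1.79, or 1.25 in the spots with at least 3 of the 5 CA3 genes, and its median spot held 0.827, 0.892 and 2.75 UMIs per 10,000; in all other spots its ratio was 1.36.

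**Figure D4:**
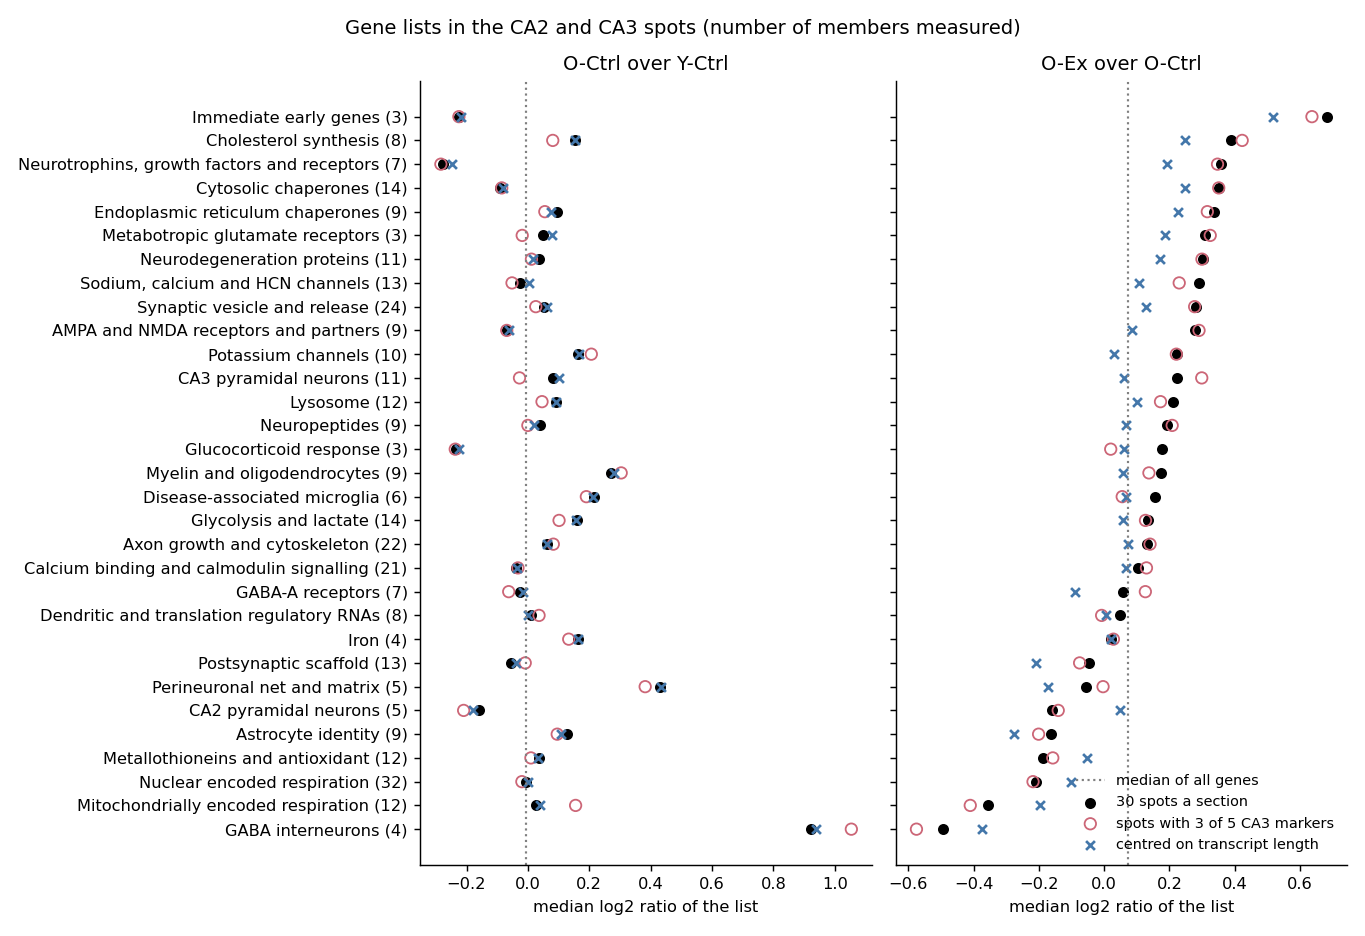
Median log2 ratio of the genes that passed the filter in each gene list, for O-Ctrl over Y-Ctrl and O-Ex over O-Ctrl. Black points are all 30 spots, open red points only spots with at least 3 of the 5 CA3 genes, blue crosses values centred on transcript length, and the dotted line is the median over all genes; for O-Ex over O-Ctrl the immediate early list stands highest of the neuronal lists at 0.68 and mitochondrially encoded genes stand at −0.36.

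Beside the rest of the sections, the sums of 30 spots had more genes past 1.5-fold than the far larger sums over all other spots, which had 6 higher (0.179%) and 0 lower in O-Ctrl, and 9 higher (0.268%) and 0 lower in O-Ex. The CA1-scored sums, also of 30 spots, had 44 higher (1.31%) and 62 lower (1.85%) in O-Ctrl and 131 higher (3.9%) and 38 lower (1.13%) in O-Ex. The dentate-scored sums had 77 (2.29%) and 147 (4.38%), and 244 (7.26%) and 87 (2.59%). The counts in the CA2 and CA3 spots were thus near those of CA1 and below those of the dentate gyrus.

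**Figure D5:**
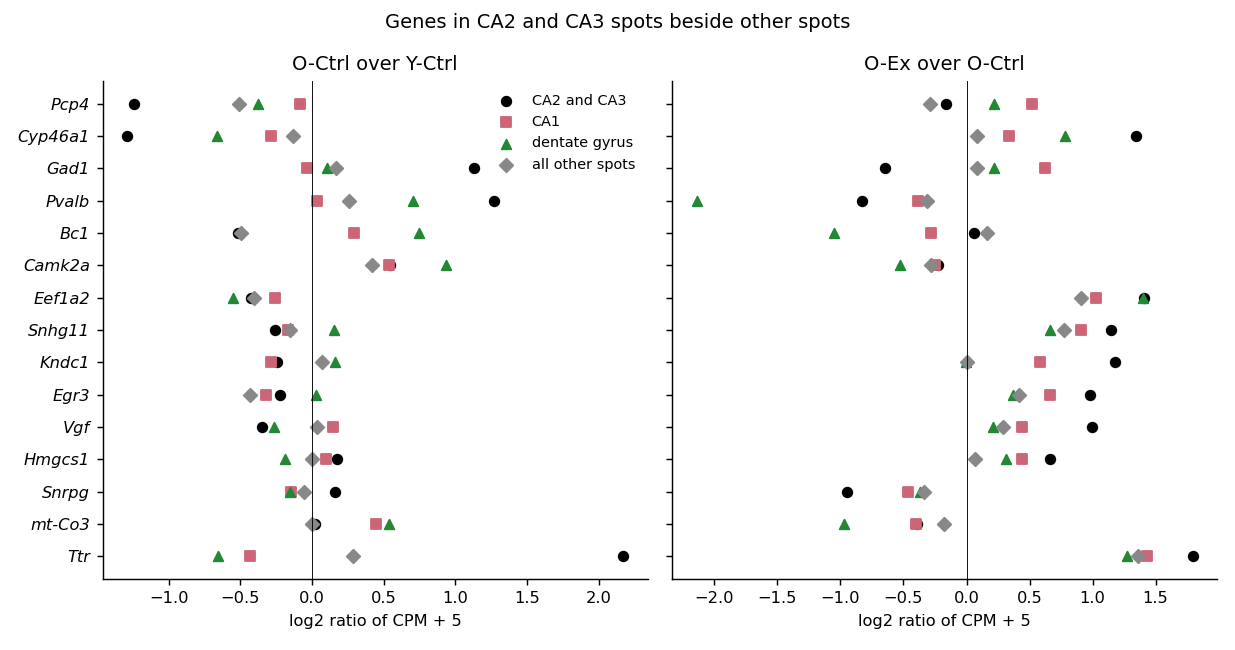
Log2 ratios of 15 genes in the CA2 and CA3 spots, the CA1-scored spots, the dentate-scored spots and all other spots, for both comparisons. Kndc1 and Hmgcs1 read 1.18 and 0.67 for O-Ex over O-Ctrl in the CA2 and CA3 spots and 0.00 and 0.07 in all other spots, whereas Eef1a2 reads 1.41 and 0.91.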

How the data were processed

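Raw UMI counts per gene and barcode were deposited for each section as a 10x matrix of 31053 genes and 4992 barcodes, which the authors made, per the file headers, with Space Ranger 2.0.0 on mm10, per the submitters' processing notes. The sources used here do not give the aligner settings or the annotation release. Barcodes with at least 3000 UMIs were kept, 30 per section were chosen by the score, and no doublet caller was run, since these are spots. Whether a spot lay over tissue was judged only by that minimum. Counts were summed per section and divided by their total to give CPM. The 5 score genes were left out of all comparisons, and the log2 ratio used a pseudocount of 5 CPM on genes whose mean over the sections reached 50 CPM. No model was fitted, because each group had 1 section. Counting intervals were exact Poisson (levels) or Clopper-Pearson (shares). The procedure was tested on simulated data.

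The members and gene lists were chosen with earlier results of these data known. Named genes were the 10 highest and 10 lowest ratios of each comparison (sex-linked genes left out), all CA3 and CA2 list genes, the 2 most abundant and the 2 most different members of each other list, and the 15 genes highest over other spots. Of 724 symbols in 54 lists 722 were found, and Clec7a and Aldoa were not. Some list members, counted in the lists' totals, are not reported here by name. In the matrices 35 symbols occur more than once. Lengths and coordinates came from GENCODE on GRCm38 (31011 of 31053 gene IDs found), and promoters from RefSeq on GRCm38.p6, where Homer1 has 2 entries. The work used python 3.11.15, numpy 2.4.6, scipy 1.17.1, pandas 2.3.3, matplotlib 3.10.9 and edgeR 4.0.16 for TMM factors. There were 17 alternatives chosen at the outset, and 3 were chosen after seeing the data: only spots with 3 of 5 CA3 genes, ratios centred on transcript length, and leaving out the richest spot of each gene.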

Additional observations from a re-analysis of the deposited data

How the results depend on the processing

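Counts of genes past 1.5-fold (37 higher and 54 lower in O-Ctrl over Y-Ctrl, 147 and 34 in O-Ex over O-Ctrl) depended on which spots entered. For genes higher in O-Ctrl they were 82 with 20 spots per section, 99 with the score without Nptx1, 69 as a mean of single spots, 20 at a pseudocount of 20 CPM, 187 at a filter of 20 CPM, 4 at 200 CPM, 823 with no filter and 5 at 2-fold. For genes lower in O-Ctrl they were 20 with 50 spots, 90 without Nptx1, 26 at a pseudocount of 20 CPM, 269 at 20 CPM, 3 at 200 CPM, 1074 with no filter and 4 at 2-fold. For genes higher in O-Ex they were 89 with 50 spots, 245 without Nptx1, 90 with the CA3 list as score, 80 with TMM, 70 at a pseudocount of 20 CPM, 512 at 20 CPM, 10 at 200 CPM, 1531 with no filter, 9 at 2-fold and 65 centred on length. For genes lower in O-Ex they were 100 with 20 spots, 59 at 1000 UMIs, 88 without Nptx1, 84 as a mean of single spots, 90 with TMM, 61 without mitochondrial genes in the total, 16 at a pseudocount of 20 CPM, 157 at 20 CPM, 1 at 200 CPM, 687 with no filter, 0 at 2-fold and 68 centred on length. Without Nptx1 only 16, 17 and 14 of the 30 spots of Y-Ctrl, O-Ctrl and O-Ex were shared with the members, and with the CA3 list 18, 19 and 17. Ratios past 1.5-fold that changed sign were, for O-Ctrl over Y-Ctrl, Cnr1 (−0.078), Hbb-bs (−1.43), Sst (0.97) and Ttr (−0.28) with the CA3 list and Npy (−0.012) with 20 spots. For O-Ex over O-Ctrl they were Adarb1 (0.11), Enpp2 (−1.38), Fam19a2 (0.18), Pantr1 (0.48), Ptpn5 (0.26), Pvalb (0.22) and Ttr (−2.23) without Nptx1, Cnr1 (0.38), Gad1 (0.54), Pvalb (0.37) and Sst (−0.31) with the CA3 list, and Gad1 (0.32) with 20 spots. The cause was not tested. Cyp46a1, Eef1a2, Kndc1, Egr3, Vgf, Hmgcs1 and Snrpg kept the sign of their called ratio in every alternative tried. No paired analysis was possible because each group had 1 section. Genes near 50 CPM rest on about 40 UMIs per section, and such counts limit what a ratio can show.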
